A study of Mus musculus with 4 samples.

Results

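Acyl-CoA synthetases join a fatty acid to coenzyme A at the expense of ATP, the step that a fatty acid must pass before it can be stored as triglyceride, oxidised, elongated or attached to a protein. The enzymes are grouped by the length of the chain they prefer, and the 9 examined here were 5 long-chain enzymes (Acsl1, Acsl3, Acsl4, Acsl5 and Acsl6), 2 medium-chain enzymes of mitochondria (Acsm3 and Acsm5) and 2 short-chain enzymes that activate acetate (Acss1 and Acss2). In white fat the long-chain enzymes serve both triglyceride synthesis and oxidation, while the acetate enzymes supply acetyl-CoA. The members were every probe in the scanner files that was not a control and carried 1 of the 9 gene names: 18 of 41174 probes. Of these, 12 probes for 8 members were tested, having been well above background on 2 of 2 LFD arrays, 2 of 2 HFD arrays or all 4, among 26057 probes for 17739 genes.

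The RNA came from white adipose tissue of female C57BL/6 mice, and the labels do not name the fat depot. From 8 weeks of age the mice were fed for 18 weeks either a high fat diet (HFD; the product High fat diet 32 of CLEA Japan) or the standard low fat diet (LFD; CE2 of the same supplier). What else differs between the 2 products is not in the labels. No transgene or drug was named. Each of the 4 one-colour arrays, 2 per diet, carried RNA from adipose tissue of 3 mice mixed into a pool. Whether the replicates of a diet were separate pools or the same pool is not stated, so their spread may be technical and is in no case that between animals. Values are log2 of the processed spot brightness minus the log2 of the array's 75th percentile, called the level below, and a change is the mean HFD level minus the mean LFD level. A gene was called when its limma p-value, adjusted over all tested probes, was under 0.05, and its value was that of its brightest tested probe.

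The 2 medium-chain enzymes fell on HFD, Acsm3 31.8-fold and Acsm5 4.02-fold, and they were the only members among the 8 tested that were called. The change was positive for 3 tested members and negative for 5. No tested member was called higher. None was higher at an unadjusted limma p under 0.05 by its brightest probe, although the second Acsl4 probe was (limma adjusted p = 0.0513). The count of 2 lower members of 8 (25%) (2 also if either direction is counted) stands beside 5.61% of all 17739 tested genes called lower and 11.4% called in either direction, and the count of 0 beside 5.74% called higher. Falls that were called and at least 2-fold, as both of these were, made up 2.66% of all tested genes. The long-chain enzymes had a median change of 0.13 over their 4 tested members, against 0.02 over all tested genes. For the acetate enzymes the changes were -1.53 for Acss2 and -0.21 for Acss1, and neither was called.

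**Figure D1:**
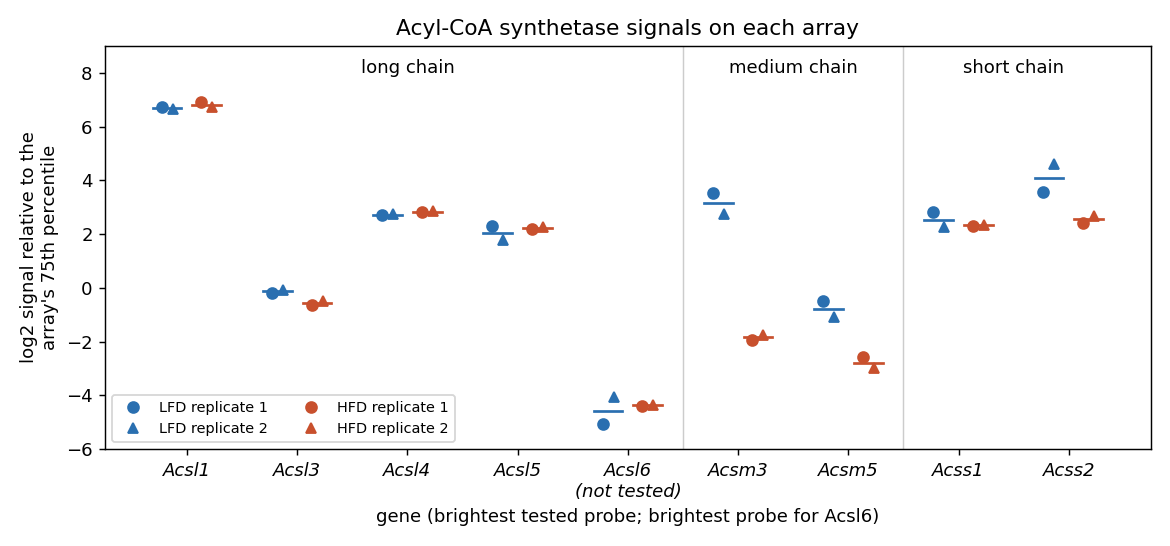
Level of each acyl-CoA synthetase on each array (vertical axis: log2 signal over the 75th percentile of the array), with circles and triangles for replicates 1 and 2 and a bar for the mean of a diet. The HFD points of Acsm3, Acsm5, Acss2 and Acsl3 lie below both LFD points, those of Acsl4 lie above, and Acsl6 was not tested.

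Without regard to the test, and by the brightest probe, both HFD arrays lay below both LFD arrays for 4 of the 8 tested members (Acsl3, Acsm3, Acsm5 and Acss2). They lay above them for 1 (Acsl4), while the diets overlapped for 3 (Acsl1, Acsl5 and Acss1). Over all tested genes the shares were 32.7% below, 36.2% above and 68.9% in either direction, so a lack of overlap was common on these arrays. The 4 members below were also those with an unadjusted limma p under 0.05, a rule that 16.7% of all tested genes met in the lower direction.

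Acsm3 activates medium-chain fatty acids, and also the shorter butyrate, in the mitochondrial matrix, and is best known from liver and kidney. Its single probe (A_51_P487175; chromosome 7, 126928021 to 126928080 in mm9, plus strand, at base 2267 of the transcript by the files' numbering) gave levels of 3.54 and 2.76 on LFD and -1.93 and -1.76 on HFD. Both HFD arrays were far below both LFD arrays, and the difference was much larger than the gap between the LFD arrays. The mean level was 3.15 ± 0.55 on LFD and -1.84 ± 0.12 on HFD (SD, n = 2 each), a change of -4.99 (SE 0.29, limma adjusted p = 0.0137). Before scaling, the processed brightness was 9637 and 5784 on LFD against 225.5 and 231.1 on HFD, and the probe was well above background on all 4 arrays, so the low HFD values were measured and not set by background. Only 5 of the 17739 tested genes (0.0282%) had a more negative change. Leaving out HFD replicate 1 or 2 gave adjusted p-values of 0.0571 and 0.0576, and testing every probe with no background filter gave 0.107, all with the change between -5.07 and -4.91.

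Acsm5, a close relative of Acsm3 in the same chromosome 7 cluster, had levels of -0.49 and -1.07 on LFD and -2.58 and -2.99 on HFD (probe A_51_P229655; 126686414 to 126686473 in mm9, plus strand). Its diets did not overlap, and LFD replicate 1 was the highest array for both Acsm genes. The mean fell from -0.78 ± 0.41 to -2.79 ± 0.29 (SD, n = 2 each), a change of -2.01 (SE 0.26, limma adjusted p = 0.0274). Of all tested genes, 126 (0.71%) had a more negative change. The call was lost without LFD replicate 1 (adjusted p = 0.0638), HFD replicate 1 (0.0719) or HFD replicate 2 (0.115), and with no background filter (0.12).

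**Figure D2:**
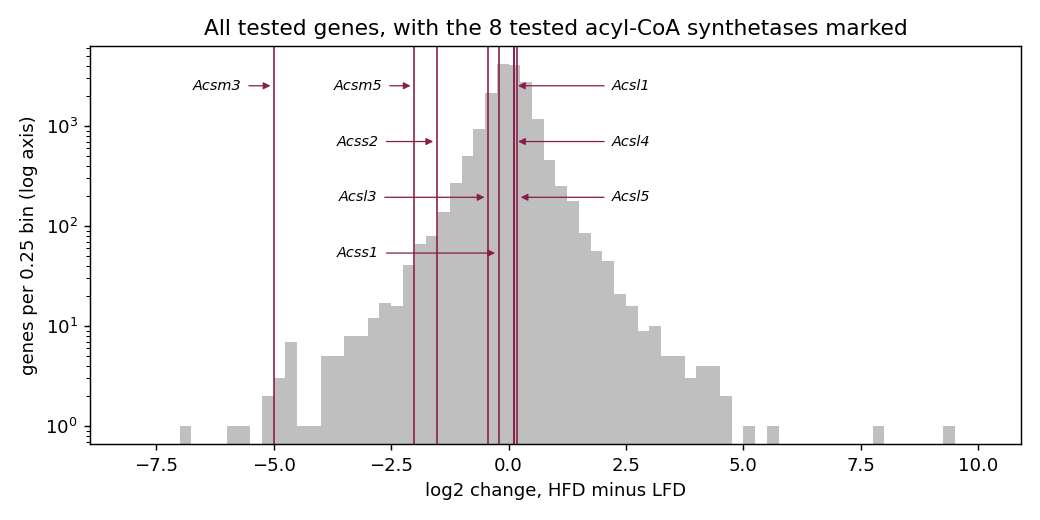
Histogram of the log2 change (HFD minus LFD) of all 17739 tested genes in bins 0.25 wide, with a logarithmic count axis and a line for each of the 8 tested acyl-CoA synthetases. Acsm3 at -4.99 lies in the far lower tail, Acsm5 at -2.01 and Acss2 at -1.53 in the lower shoulder, and the other 5 in the central peak.

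The promoters of Acsm3 and Acsm5 are shown because these were the only members called. Each run is the 300 bases around the RefSeq start site in GRCm38.p6, read along the gene, which is chr7:119760673-119760972 (plus strand) for Acsm3 and chr7:119526015-119526314 (plus strand) for Acsm5. Capitals mark matches, on either strand, to 7 motifs searched in every promoter.
Acsm3: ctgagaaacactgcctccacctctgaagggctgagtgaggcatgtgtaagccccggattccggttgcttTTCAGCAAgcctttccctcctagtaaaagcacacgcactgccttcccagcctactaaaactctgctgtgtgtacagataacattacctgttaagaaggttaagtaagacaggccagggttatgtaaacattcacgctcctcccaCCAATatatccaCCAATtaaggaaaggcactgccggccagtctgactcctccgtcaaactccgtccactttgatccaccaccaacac
Acsm5: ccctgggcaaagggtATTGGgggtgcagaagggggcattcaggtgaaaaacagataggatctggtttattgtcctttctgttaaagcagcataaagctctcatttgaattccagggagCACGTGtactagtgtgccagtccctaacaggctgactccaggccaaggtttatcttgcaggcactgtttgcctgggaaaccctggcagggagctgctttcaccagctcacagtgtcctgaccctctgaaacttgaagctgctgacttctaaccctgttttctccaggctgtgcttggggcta
In the Acsm3 run the capitals are a match to the C/EBP-type letters TTGCNNAA (read on the other strand, from base 70) and 2 copies of CCAAT, from bases 214 and 226. The Acsm5 run holds CCAAT on the other strand from base 16 and the E-box CACGTG from base 119. The share of 32851 mouse promoters with each motif was 10.8% for TTGCNNAA, 37.4% for CCAAT and 7.15% for CACGTG. Among the 12 promoters listed for the 9 members, CCAAT occurred in 8, TTGCNNAA only in that of Acsm3 and CACGTG only in that of Acsm5.

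Base composition varied over the member promoters. The GC box GGGCGG, found in 35.7% of all promoters, was in 8 of the 12 member promoters, covering Acsl3, Acsl4, Acsl6, Acss1, Acss2 and 1 of the promoters of Acsl1. It was absent from those of Acsm3 and Acsm5, from that of Acsl5 and from the other Acsl1 promoter. GC content was at most 53.0% in these 4 promoters and at least 58.0% in the 8 with a GC box. The sterol-type letters TCACNCCAC (1.24% of all promoters) were in 1 of the Acsl1 promoters, and neither the PPAR-type repeat, 2 copies of AGGTCA 1 base apart (0.0396%), nor TATAAA (13.6%) was in any of the 12. Matches are letters in a window of 300 bases and do not show binding.

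The genes around Acsm3 and Acsm5 on chromosome 7 were examined after the values of these 2 were known. In chromosomal order, Acsm5 is followed by Acsm2, Acsm1 and Acsm4, then Thumpd1, Ppp1ccb (for which no value was used here) and Acsm3, then Eri2, Rexo5 and Dcun1d3. Of the Acsm paralogues in between, Acsm2 and Acsm4 were not well above background on any array, and Acsm1 had levels of -4.24 and -3.65 on LFD and -4.38 and -4.07 on HFD, close to background and not called (limma adjusted p = 0.462). None of these 3 paralogues had enough signal on LFD to show a fall as large as that of Acsm3.

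Among the nearest genes of other families, Thumpd1, which codes for an RNA-binding protein, differed by -0.24 (limma adjusted p = 0.158) at its brightest probe and by -1.02 (0.054) at its second tested probe, which was not well above background on HFD. Rexo5, an exonuclease, differed by -0.67 (limma adjusted p = 0.0604). Eri2, which lies next to Acsm3, was called lower at 1.51-fold (change -0.60, SE 0.10, limma adjusted p = 0.0397), but another of its tested probes gave 0.29 (0.27), the opposite direction. Dcun1d3 differed by 0.16 (0.64). Each of these changes was smaller in size than that of Acsm5.

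**Figure D3:**
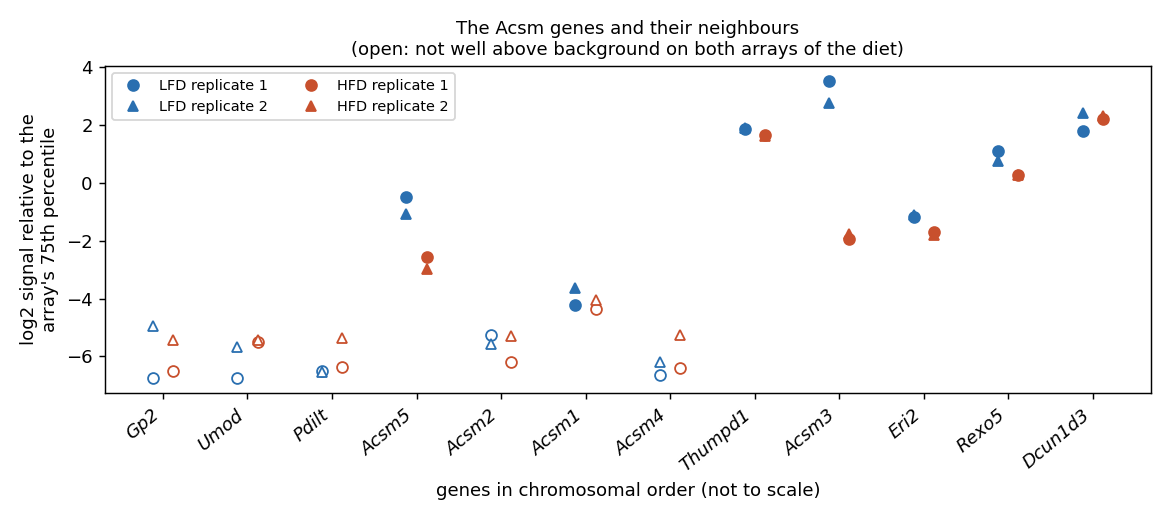
Level on each array (log2 signal over the 75th percentile of the array) of the Acsm genes and their neighbours in chromosomal order, not to scale. Open symbols are genes not well above background on both arrays of that diet. Acsm3 and Acsm5 show the wide gaps between diets, while Acsm2 and Acsm4 stay at background on all 4 arrays.

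Genes whose levels followed those of Acsm3 most closely over the 4 arrays were sought by the Euclidean distance between levels centred on each gene's mean, over 14779 candidate genes. Uncharacterised transcripts and genes with names beginning with Ig were passed over in the ranking. The nearest of the rest were Mup8 (distance 0.418), Mup1 (0.467), Mup5 (0.469), Mup4 (0.606) and Cyp2f2 (0.656), with changes from -4.64 to -4.39. The Mup genes code for major urinary proteins, secreted carriers of small lipophilic molecules, and Cyp2f2 for a cytochrome P450 enzyme. The Mup genes form a family of similar copies, and how far their probes tell them apart was not tested. With only 4 arrays in 2 diets, this ranking mainly finds genes with a change of the same size.

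Markers of other cell types moved with the same contrast, and in bulk tissue fewer cells of a type and less RNA per cell cannot be told apart. The counts of markers called stand beside 5.61% of all tested genes called lower and 5.74% called higher. The brown fat markers were called lower on HFD for 4 of 6 (Ucp1, Cidea, Dio2 and Ppargc1a). Their summed levels were 108 and 42.8 on LFD against 6.95 and 9.405 on HFD, in multiples of the array's 75th percentile. LFD replicate 1 was the higher of the LFD arrays for this sum, as it was for Acsm3 and Acsm5. All 7 mesothelial markers were called lower, with sums of 29.9 and 32.0 on LFD and 11.6 and 9.14 on HFD. Of 4 urothelial markers 3 were called lower, and the sum of all 4 went from 4.44 and 4.48 to 0.947 and 0.809. Dio2, Upk3a and Upk2 were well above background on 2 LFD arrays but only 1 HFD array. These 3 passed the filter through LFD alone, and the size of their falls is uncertain. Of 8 mammary epithelial markers, the keratins Krt8 and Krt18 were called lower, Lalba, Wap and Krt14 had changes of 0.36, 0.64 and 0.26 that were not called, and Csn2, Csn1s1 and Epcam were not well above background on any array. Their median change over the 5 tested was 0.26, while their sum, carried by the keratins, was 9.73 and 9.61 on LFD and 2.43 and 2.19 on HFD.

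The kidney markers Umod, Slc34a1, Kap and Slc12a1 were all not well above background on any of the 4 arrays. Of the 4 liver markers 2 were tested and none was called, with summed levels of 3.23 and 8.44 on LFD and 1.71 and 4.90 on HFD that overlap. The 6 adipocyte markers, Adipoq and Plin1 among them, summed to 1188 and 1289 on LFD and 1183 and 1255 on HFD with none called, so the labelled tissue had its defining markers under both diets. Macrophage markers were called higher for 5 of 7, beside 5.74% of all tested genes, with sums of 175 and 161 on LFD and 263 and 273 on HFD. None of the endothelial, muscle and lymphocyte markers was called. The part of any of these cell types in the fall of Acsm3 and Acsm5 was not tested.

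Acss2 makes acetyl-CoA from acetate in the cytosol and nucleus and is a known target of the sterol-regulated factors. Its brightest probe (A_51_P488399; chromosome 2, 155388126 to 155388188 in mm9, plus strand) gave levels of 3.56 and 4.62 on LFD and 2.42 and 2.69 on HFD. The HFD arrays were below both LFD arrays, but the LFD arrays stood further apart than the HFD arrays, with replicate 2 the higher. The change of -1.53 (SE 0.39, limma adjusted p = 0.0784), 2.88-fold lower, did not pass the threshold. A second tested probe, A_52_P566718, gave 1.97 and 3.24 on LFD and 0.99 and 1.32 on HFD, a change of -1.45 (limma adjusted p = 0.115), so both tested probes ran the same way. Acss2 was called lower without LFD replicate 1 (change -2.06, adjusted p = 0.0451) and with normexp background correction (0.0303), and had a change of -0.997 (0.0644) without LFD replicate 2. Acss1, the mitochondrial acetate enzyme, had levels of 2.81 and 2.26 on LFD and 2.32 and 2.33 on HFD, which overlap (change -0.21, SE 0.21, limma adjusted p = 0.515).

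The enzymes that make and use acetyl-CoA for fatty acid synthesis were called lower for 6 of 13 and higher for 1. Over all tested genes 5.61% were called lower and 5.74% higher. The median change of the 13 was -1.31 against 0.02 over all tested genes. Acacb and Acaca, which carboxylate acetyl-CoA to malonyl-CoA, fell 6.41-fold and 7.28-fold (limma adjusted p = 0.0137 and 0.0226). Elovl6, which elongates palmitate, fell 11.2-fold (limma adjusted p = 0.025), and Pdha1, a subunit of pyruvate dehydrogenase, 2.69-fold (0.0288). Fasn, the fatty acid synthase, fell 1.81-fold (limma adjusted p = 0.0345) and Dlat, another pyruvate dehydrogenase subunit, 1.77-fold (0.0408). The 1 gene called higher was Hmgcs1, which uses acetyl-CoA units for sterol synthesis, at 1.67-fold (0.0397). Acly, which makes acetyl-CoA from citrate and so runs beside Acss2, had levels of 3.72 and 5.41 on LFD and 1.54 and 1.95 on HFD. Its LFD arrays were spread as those of Acss2 were, with replicate 2 the higher, and its change of -2.82 was not called (limma adjusted p = 0.0601).

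Among the long-chain enzymes, Acsl1 is the main form of adipocytes, where it supports both triglyceride synthesis and oxidation. Its brightest probe (A_51_P496432; chromosome 8, 47621232 to 47621291 in mm9, plus strand) gave 6.73 and 6.66 on LFD and 6.92 and 6.73 on HFD, which overlap. The change was 0.12 (SE 0.11, limma adjusted p = 0.479). Both other probes, which lie further upstream in the transcript, had larger values in the same direction, 0.35 (SE 0.18, adjusted p = 0.255) for A_51_P463452 and 0.45 (SE 0.21, 0.207) for A_52_P597618. At both of these probes the HFD arrays lay above the LFD arrays without overlap, and neither passed. By the same ranking, with the same names passed over, the 5 genes closest to Acsl1 were Topbp1, Fnip1, Stard13, Desi2 and Dpy19l3 (distances 0.02 to 0.04). They had changes as small, from 0.11 to 0.14, and none was called.

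Acsl4, which prefers arachidonic acid, and Acsl3, which resides on the endoplasmic reticulum and on forming lipid droplets, are the closest relatives among the long-chain members, and their diets lay in opposite order. Acsl3 (A_51_P511560; chromosome 1, 78702965 to 78703024 in mm9, plus strand) had levels of -0.20 and -0.07 on LFD and -0.64 and -0.50 on HFD, a change of -0.43 (SE 0.11, limma adjusted p = 0.08). For Acsl4 the brightest probe (A_52_P78203; chromosome X, 138752602 to 138752661, minus strand) gave 2.70 and 2.73 on LFD and 2.84 and 2.84 on HFD, a change of 0.13 (SE 0.09, adjusted p = 0.374). Neither gene's diets overlapped, and neither gene was called. The second Acsl4 probe, A_51_P268154 (138755198 to 138755257), had levels of -0.31 and -0.22 on LFD and 0.21 and 0.26 on HFD, a change of 0.50 (SE 0.10, adjusted p = 0.0513), just over the threshold. Acsl3 was called lower when arrays were scaled to their median (adjusted p = 0.0484) and with a trended, robust variance (0.04).

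The Acsl3 probe and the second Acsl4 probe were laid side by side without gaps, at the shift with the highest share of identical bases. The stretch was cut at the first taa that both hold, read here as the stop codon without annotation. Capitals mark the bases that differ, and both runs end in that taa.
Acsl3: ttgagcgGatgtatggAAgGaaataa
Acsl4: ttgagcgAatgtatggGGgCaaataa
Of 26 bases 22 were identical, at a shift chosen for likeness, so the count does not measure how alike the whole messages are. Over the whole 60-base probes, the longest run that any member probe had in common with a probe of another gene was 12 to 16 bases, 14 for Acsm3 and 13 for Acsm5.

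Acsl5, an enzyme of mitochondria and endoplasmic reticulum, had levels of 2.29 and 1.79 on LFD and 2.17 and 2.27 on HFD (A_52_P593037; chromosome 19, 55368743 to 55369331 in mm9, plus strand, a span of 589 bases that takes in sequence absent from the 60-base probe). The diets overlapped, with a change of 0.18 (SE 0.20, limma adjusted p = 0.543). Acsl6, the form best known from brain, was not well above background on both arrays of either diet with any of its 4 probes and was not tested. Its brightest probe gave -5.07 and -4.06 on LFD and -4.38 and -4.37 on HFD, and only 1 of these 4 values, on LFD, was well above background.

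**Figure D4:**
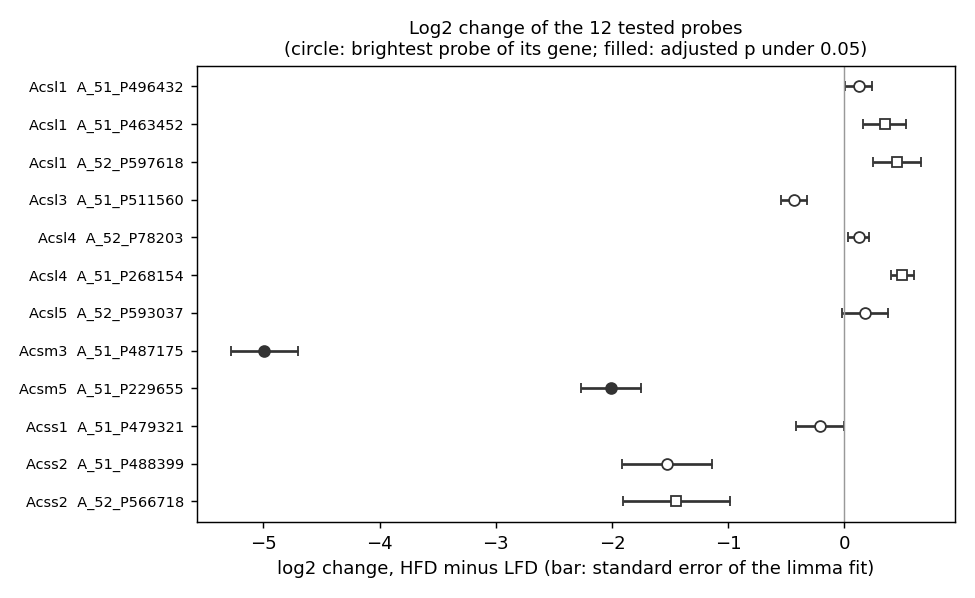
Log2 change (HFD minus LFD) of the 12 tested probes of the 8 members, with the standard error of the limma fit as bars. Circles are the brightest tested probe of a gene, squares its other probes, and filled symbols were called. Only the Acsm3 and Acsm5 probes are filled, and the probes of Acsl1, Acsl4 and Acss2 each agree in direction within the gene.

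The other acyl-CoA synthetases were called lower for 2 of the 10 tested of 15 listed and higher for none, beside 5.61% lower and 5.74% higher over all tested genes. Their median change was -0.44 against 0.02. Slc27a1, a fatty acid transport protein with long-chain synthetase activity, had levels of 4.49 and 4.48 on LFD and 3.43 and 3.08 on HFD, and fell 2.35-fold (SE 0.15 on the log2 scale, limma adjusted p = 0.0251). Acsf3, which activates malonate in mitochondria, fell 1.61-fold (limma adjusted p = 0.0365). Aacs, which activates acetoacetate, differed by -1.44 (0.0533) and the propionate enzyme Acss3 by -0.60 (0.0715), and neither passed. Acsm2, Acsm4, Acsbg2, Slc27a5 and Slc27a6 were not tested.

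The lists of proteins that handle acyl-CoA after it is made, and of their regulators, were read beside the 11.4% of all tested genes called in either direction (5.61% lower and 5.74% higher). Of 17 tested thioesterases and acyl-CoA binding proteins, Acot4, a peroxisomal thioesterase, fell 2.34-fold (limma adjusted p = 0.0356) and Acot7, a long-chain thioesterase, rose 1.56-fold (0.0355), while 15 were not called, a share of calls near that of all genes. The acyl-CoA binding protein Dbi differed by 0.06 (adjusted p = 0.685). Among 16 tested users in glycerolipid synthesis, 3 fell and 1 rose: Mogat1, a monoacylglycerol acyltransferase, fell 4.88-fold (0.0142), Gpat3 1.71-fold (0.0297) and Agpat3 1.63-fold (0.037), while Soat1, which esterifies cholesterol, rose 3.00-fold (0.0181). Their median change was -0.24.

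Of 18 tested genes of fatty acid oxidation, 1 was called higher and 1 lower, again a share of calls near the 11.4% of all genes. The median change of the 18 was -0.30 against 0.02 over all tested genes. For most of the 18, both HFD arrays lay below both LFD arrays, beside 32.7% of all tested genes. Cpt1a, which commits long-chain acyl-CoA to the mitochondrion, rose 2.84-fold (limma adjusted p = 0.029), and Acadvl, the very-long-chain dehydrogenase, fell 1.63-fold (0.037). Acadm, the dehydrogenase that acts on the medium-chain acyl-CoA that Acsm enzymes make, differed by -0.24 (adjusted p = 0.169), and its short-chain counterpart Acads by -0.17 (0.289). Neither of these dehydrogenases was called.

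Among 12 regulators known to act on synthetase genes, 2 were called lower and none higher, beside 5.61% lower and 11.4% called in either direction over all tested genes. Ppargc1a, a coactivator of oxidative genes that is also counted among the brown fat markers, fell 2.07-fold (limma adjusted p = 0.0172), and Mlxipl, the carbohydrate-response factor, 3.26-fold (0.0346). Ppara differed by -1.35 (adjusted p = 0.0555), Srebf1 by -0.71 (0.12), Srebf2 by 0.09 (0.613) and Pparg by -0.27 (0.426), and none of these passed.

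**Figure D5:**
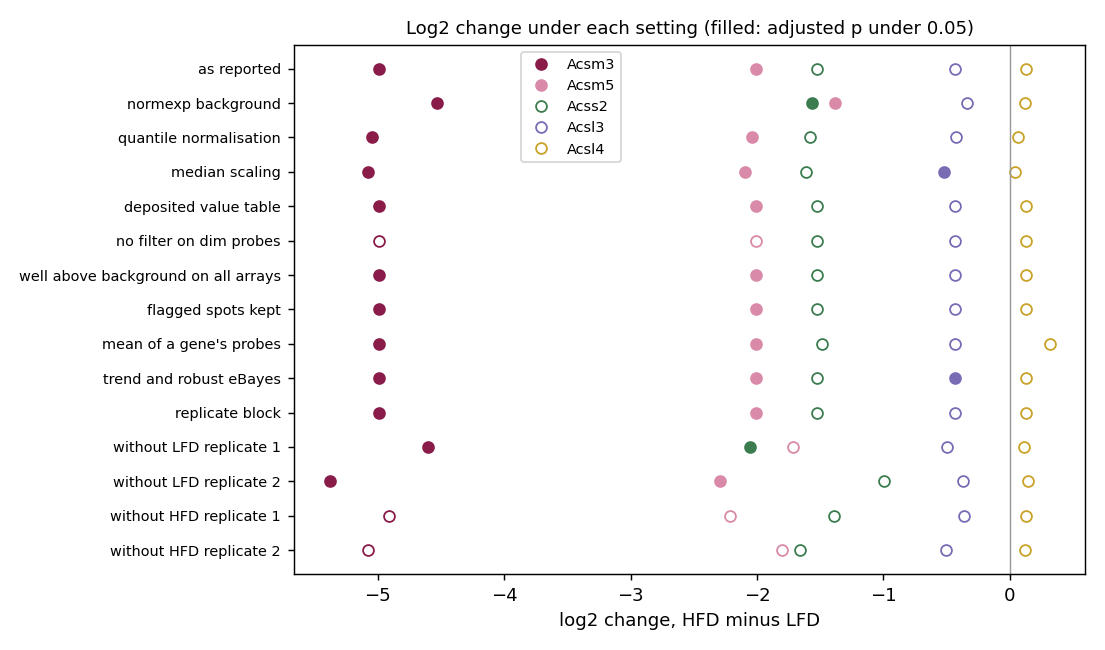
Log2 change (HFD minus LFD) of 5 members under the reported setting and 14 alternatives, with filled symbols where the adjusted p was under 0.05. Acsm3 stays between -5.38 and -4.53 and Acsm5 between -2.30 and -1.39. The symbols of both are open without the background filter and without either HFD array. That of Acsm5 is open also without LFD replicate 1.

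On the arrays as a whole, 21312 to 27936 probes were well above background, with the fewest on HFD replicate 2. Log2 levels correlated at 0.989 between the LFD arrays, 0.992 between the HFD arrays and 0.965 to 0.971 between diets. In all, 1019 genes were called higher and 995 lower, and 852 and 1334 when arrays were scaled to their median.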

How the data were processed

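The authors deposited 1 scanner file per sample, in which each spot has an intensity on a linear scale. Per the file headers, Feature Extraction 11.0.1.1 had subtracted background, while the submitters' processing notes name version 11.5.1.1. A deposited table of values, found by comparison to be a ratio (processed signal over the array's 75th percentile), served as an alternative.

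Control spots and spots flagged as outliers (60 to 115 per array) were left out, spots of a probe were averaged, and log2 of the processed signal minus that of the array's 75th percentile was analysed. No spot was saturated. Probes that were well above background on 2 of 2 arrays of LFD, HFD or each were fitted in R 4.3.3 with limma 3.58.1 (lmFit, then eBayes; two-sided tests; files read by the data.table package, version 1.17.8), and p-values were adjusted over the 26057 tested probes (Benjamini-Hochberg). Residual degrees of freedom were 2, with 2.24 more from the prior. A single-gene exact permutation test of 2 arrays against 2 cannot go below p = 0.333. As each sample mixed tissue from 3 mice and separate pools are not stated, p-values measure only the spread between these arrays, which may be technical. The number of arrays limits the precision. Probe names were updated through a RefSeq gene table of GRCm38.p6, in which 27668 probes matched and 13506 kept their own name. Probe coordinates are the files' own (mm9), with no annotation of that build used here. Promoter sequences are RefSeq's, and all 9 members matched.

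The members and lists were chosen with earlier results of these data known, and so were the tests. Named genes were all members, up to 4 genes per list with the smallest p among those called with diets that did not overlap, and the 5 nearest genes in level to Acsm3 and to Acsl1. Uncharacterised transcripts and genes with names beginning with Ig were passed over when the nearest genes were taken. Other genes named in the text (other list members and the chromosomal neighbours) were chosen after their values were seen. The procedure was run on simulated data with independent noise for each gene and array. That simulation held no shared pool and no array effect, so it cannot show how the calls fare where these are present. Alternatives covered background correction, scaling, filters, probe choice, variance model, replicate block, threshold and leaving out each array. The main fit did not pair arrays by replicate number. Deviations of same-numbered arrays correlated at -0.005, a single value over the tested probes that cannot show whether they were handled together.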

Additional observations from a re-analysis of the deposited data

How the results depend on the processing

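Acsm3 and Acsm5 kept their direction under all 14 alternatives shown in the plot of settings, with changes of -5.38 to -4.53 and -2.30 to -1.39 and adjusted p-values of 0.00137 to 0.107 and 0.00622 to 0.12. The limma count of 2 lower members became 0 with no filter on dim probes (4 at an unadjusted p under 0.05) and 4 at an adjusted p under 0.10 (Acsl3, Acsm3, Acsm5 and Acss2). It ranged from 0 to 2 when 1 array was left out, with 2 to 4 at an unadjusted p under 0.05. When the filter was also reapplied to the 3 arrays left, an alternative chosen after seeing the data, it was 0 in each case, again with 2 to 4 unadjusted. No member was called higher under any alternative, with 0 at an unadjusted p under 0.05 except for 1 with the mean of a gene's probes (Acsl4, 0.31, adjusted p = 0.103) and 1 when LFD replicate 1 was left out (Acsl5). With 1 array left out, Acss1 ranged from -0.485 to 0.068 and Acsl5 from -0.068 to 0.432, the sign turning when LFD replicate 1 (Acss1) or 2 (Acsl5) was the array left out, and neither was called. Over all genes, the 2014 calls became 0 without the filter (5609 at an unadjusted p under 0.05, against 6189), 3634 with a trended robust variance, 968 with a 2-fold minimum and 4450 at an adjusted p under 0.10. With LFD replicate 1 or 2 left out they were 693 and 811, with HFD replicate 1 or 2 left out 19 and 18, and 0 to 20 with the filter reapplied (3131 to 6796 unadjusted). The replicate block gave 2 lower members and 428 genes called. The deviations of same-numbered arrays correlated at -0.005 over the tested probes. Whether these arrays shared handling or a batch was not tested. Signal over background limits Acsl6, Acsm2 and Acsm4, which were not tested, and Acsm1, which was not above background on HFD.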
